A study of Rattus norvegicus with 6 samples.

Results

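Liver endothelial cell markers were followed through 10 genes, of which Stab1, Stab2 and Lyve1 were classed as sinusoidal and Kdr, Pecam1, Cdh5, Tek, Tie1, Eng and Vwf as general endothelial genes. Every probe set of the array whose annotation gave exactly 1 symbol, and a symbol from this list, was taken. This gave 11 probe sets for 9 genes. The array held 31099 probe sets in all, of which 20832 had a single symbol, for 14217 genes. Cdh5, the cadherin of endothelial junctions, had no such probe set in the annotation used here. Lyve1 and Kdr had 2 probe sets each and the other 7 genes had 1.

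The samples were rat liver. The probiotic group (3 samples) ate a fat-rich diet for 30 d and then, for another 30 d on that diet, was gavaged daily with 1 ml of saline holding Lactobacillus casei Zhang, a lactic acid bacterium. The high-fat group (3 samples) had the same diet over both periods and the same volume of plain saline, and served as control. Both groups were thus hypercholesterolemic models, and no group on a normal diet was analysed here. The labels give no strain, sex or age, and do not say that each sample came from its own rat, so p-values measure the spread between these samples.

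The blood of the liver passes through sinusoids, capillaries whose endothelial cells have open pores and no continuous basement membrane. These cells clear waste macromolecules from blood through scavenger receptors, among them stabilin-1 (Stab1) and stabilin-2 (Stab2), and carry the hyaluronan receptor Lyve1, which also marks lymphatic vessels. Endothelium of all vessels uses receptors for vascular growth factors and angiopoietins, and in diseased liver sinusoidal cells can lose their special features and come to resemble ordinary capillaries. Stab1 and Lyve1 are also found on some macrophages, and Pecam1 and Vwf in platelets or megakaryocytes.

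Sequence just upstream of the start site was read from RefSeq promoter records of build GRCr8, which held 6 of the 10 genes (Stab1, Stab2, Lyve1, Kdr, Tie1 and Eng). The 3 sinusoidal genes are shown because they shared the array with their highest signal, and Eng because its groups did not overlap. Each run is the 250 bases before the start, 5′ to 3′ on the gene's strand. Capitals mark AGGAAG or its reverse complement CTTCCT, a core bound by ETS factors, a family that is active in endothelium.
Stab1, chr16:6367360-6367609, minus strand: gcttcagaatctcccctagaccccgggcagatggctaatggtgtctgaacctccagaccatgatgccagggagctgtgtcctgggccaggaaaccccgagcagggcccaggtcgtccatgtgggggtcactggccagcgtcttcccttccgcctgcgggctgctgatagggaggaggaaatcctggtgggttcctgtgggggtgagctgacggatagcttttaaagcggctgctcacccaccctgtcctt
Stab2, chr7:23320563-23320812, minus strand: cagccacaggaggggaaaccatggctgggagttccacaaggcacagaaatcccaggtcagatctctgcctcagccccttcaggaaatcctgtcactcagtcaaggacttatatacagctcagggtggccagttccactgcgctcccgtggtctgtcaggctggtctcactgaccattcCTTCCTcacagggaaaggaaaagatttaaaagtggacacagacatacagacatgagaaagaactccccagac
Lyve1, chr1:174410978-174411227, minus strand: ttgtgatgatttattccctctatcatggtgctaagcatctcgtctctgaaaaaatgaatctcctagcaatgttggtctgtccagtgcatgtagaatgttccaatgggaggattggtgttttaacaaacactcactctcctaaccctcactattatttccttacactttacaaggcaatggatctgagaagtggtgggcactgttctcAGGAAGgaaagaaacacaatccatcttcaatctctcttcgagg
Eng, chr3:36332029-36332278, plus strand: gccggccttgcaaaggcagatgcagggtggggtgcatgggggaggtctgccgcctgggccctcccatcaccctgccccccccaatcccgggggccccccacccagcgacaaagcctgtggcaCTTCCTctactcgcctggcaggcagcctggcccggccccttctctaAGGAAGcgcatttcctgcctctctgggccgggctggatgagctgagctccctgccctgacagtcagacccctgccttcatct
The core was found in 4 of the 6 member windows, once each in Stab2, Lyve1 and Tie1 and in 2 places in Eng, and not in those of Stab1 and Kdr. Of 33469 promoter windows of the same length, 29.5% held it on either strand. GATAA, a core bound by GATA factors, or its reverse complement TTATC was in 0 of the 6 windows and in 23.5% of all. These matches are descriptions of letters in a short window and carry no information on binding.

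No endothelial marker passed the test for a difference between the groups, and the groups overlapped for 8 of the 9 genes on their brightest probe set. Of the 10 member probe sets above the signal filter, 0 passed the limma test at an adjusted p under 0.05, against 0.0215% of the 18625 probe sets tested. At an unadjusted p under 0.05 it was again 0 of 10, against 6.85% of all. The smallest adjusted p of a member was 0.74. Signals are given on the log2 scale after quantile normalization, differences are probiotic minus high-fat, and probe sets are not compared with each other in level, because their brightness also depends on the probes. In whole liver, fewer endothelial cells and less RNA per cell cannot be told apart. The plot of the marker genes by array shows their values.

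**Figure D1:**
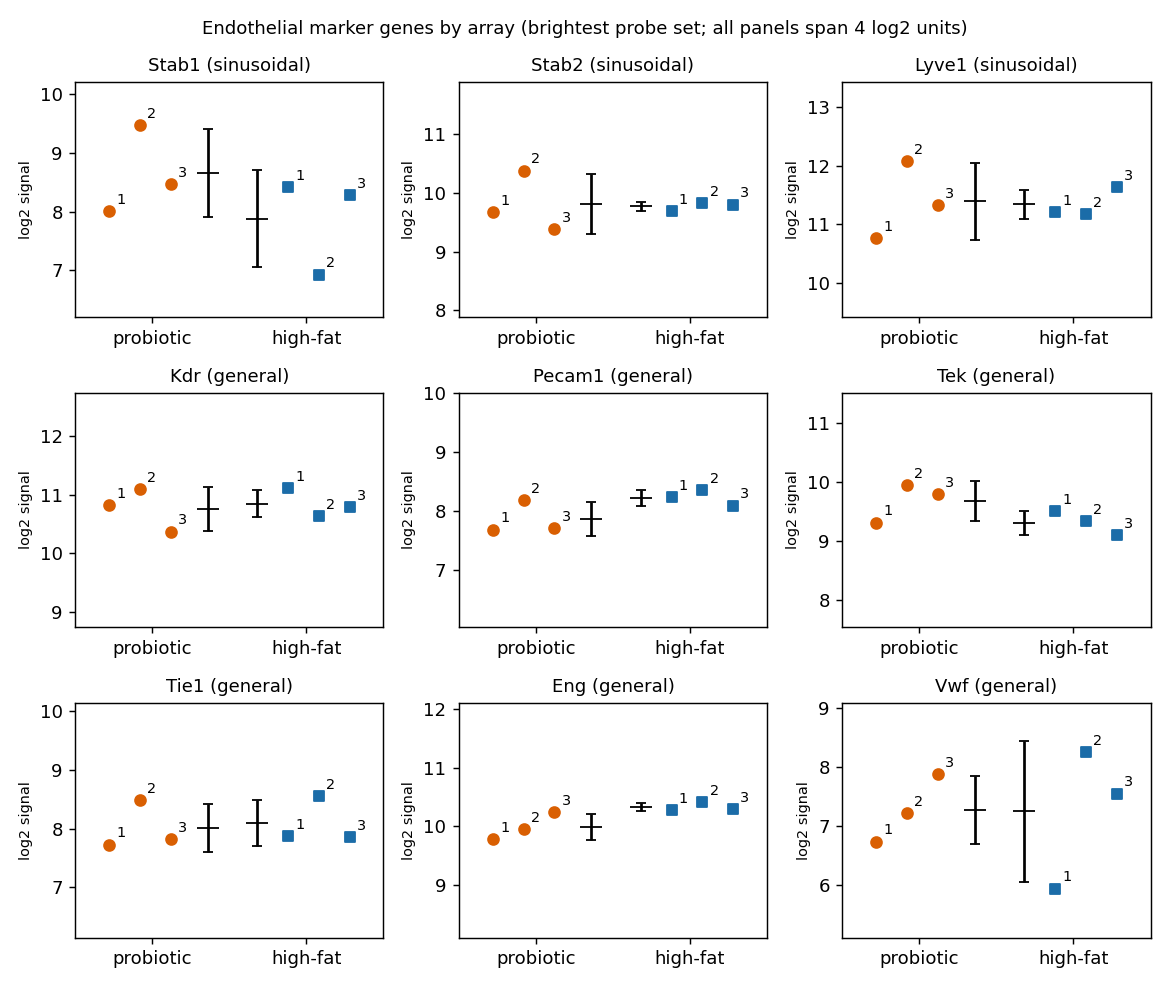
Log2 signal of the brightest probe set of each of the 9 marker genes (y axis, each panel spanning 4 log2 units) in probiotic (circles) and high-fat samples (squares), numbered by sample, with the group mean and SD beside the points (n = 3 each). The groups overlap in every panel except that of Eng, and probiotic sample 2 is the highest array for Stab1, Stab2, Lyve1 and Tek.

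Among the sinusoidal genes, Stab1 had the largest difference of the tested members and a wide spread in both groups. The deposited intensities of Stab1 were 248, 689.9 and 330.9 in probiotic samples 1, 2 and 3, against 333.3, 138.1 and 286 in high-fat samples 1, 2 and 3. On the log2 scale they were 8.01, 9.48 and 8.47 in the probiotic samples, against 8.42, 6.93 and 8.29 in the high-fat samples. The groups overlapped, and the highest and the lowest of the 6 values came from the 2 arrays numbered 2. The probiotic mean of Stab1 was 8.66 ± 0.75 and the high-fat mean 7.88 ± 0.824 (SD over 3 samples a group), which differ by 0.78 log2 units (SE 0.477, adjusted p = 0.742 with limma, 95% interval -0.30 to 1.85). Leaving out probiotic sample 2 gave 0.365, leaving out high-fat sample 2 gave 0.306, and leaving out both gave -0.115.

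Stab2, which binds hyaluronan and heparin among other ligands, had log2 signals of 9.68, 10.38 and 9.39 in probiotic samples 1, 2 and 3, against 9.69, 9.83 and 9.80 in the high-fat samples. The high-fat values lay close together (SD 0.0754) and inside the range of the probiotic values (SD 0.509), with probiotic sample 2 above all controls, probiotic sample 3 below them and probiotic sample 1 just under the lowest. Its difference was 0.04 (SE 0.267, adjusted p = 0.977 with limma, 95% interval -0.56 to 0.64).

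Lyve1 was measured by 2 probe sets that agreed on probiotic sample 2 and disagreed on high-fat sample 2. The brighter one gave 10.76, 12.08 and 11.33 in probiotic samples 1, 2 and 3, against 11.21, 11.18 and 11.63 in the high-fat samples. The other gave 10.84, 11.93 and 10.75 in the probiotic samples, against 10.88, 11.75 and 11.23 in the high-fat samples. Both put probiotic sample 2 highest of the 6 arrays. High-fat sample 2 lay below the mean of the 6 arrays on the brighter probe set (deviation -0.185) and above it on the other (deviation 0.52). The differences were 0.05 (95% interval -0.65 to 0.74) and -0.11 (95% interval -0.87 to 0.64), with adjusted p of 0.977 and 0.955 with limma.

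**Figure D2:**
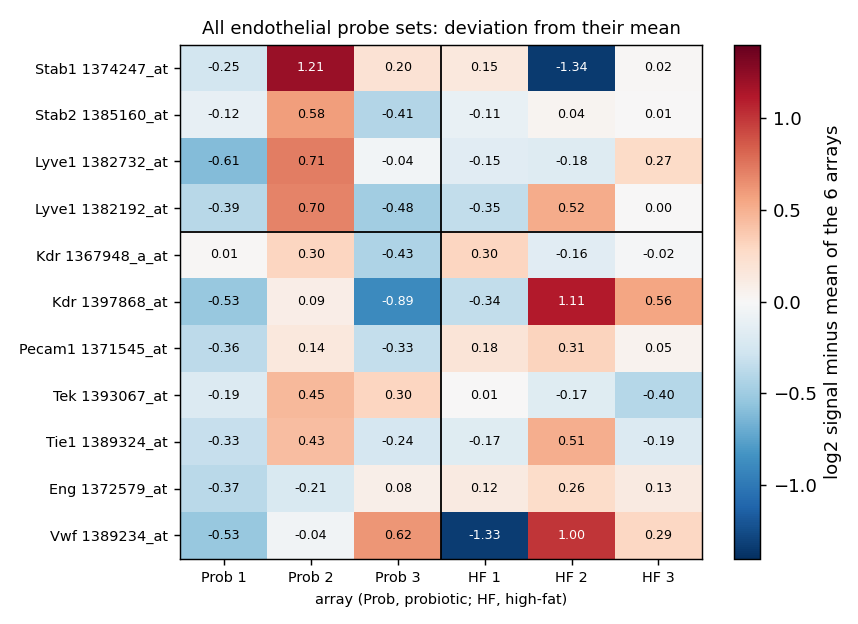
Deviation of the log2 signal from its mean over the 6 arrays (colour and printed value) for all 11 endothelial probe sets (rows) in the probiotic and high-fat samples (columns). Sinusoidal genes are above the horizontal line, and the columns of probiotic sample 2 and high-fat sample 2 hold the extremes of Stab1, at 1.21 and -1.34.

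The general endothelial genes include receptors of 2 signalling systems, and Kdr is the main signalling receptor for vascular endothelial growth factor A. Its brighter probe set had log2 signals of 10.82, 11.10 and 10.37 in probiotic samples 1, 2 and 3, against 11.11, 10.64 and 10.79 in the high-fat samples. The groups overlapped fully, with a difference of -0.08 (SE 0.233, adjusted p = 0.955 with limma). The second Kdr probe set was too dim for the signal filter and so had no test, and its values were 5.41, 6.04 and 5.06 in the probiotic samples, against 5.60, 7.06 and 6.50 in the high-fat samples. It was highest in high-fat sample 2, where the brighter probe set was below its mean.

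Tek and Tie1 form the angiopoietin receptor system, with Tek binding angiopoietins and Tie1 acting as its partner. Tek had 9.31, 9.95 and 9.79 in probiotic samples 1, 2 and 3, against 9.50, 9.33 and 9.10 in the high-fat samples. Probiotic samples 2 and 3 lay above all controls and probiotic sample 1 below 2 of them, with a difference of 0.37 (SE 0.24, adjusted p = 0.749 with limma, 95% interval -0.17 to 0.91). Without probiotic sample 1 it was 0.562 (adjusted p = 0.515). Tie1 had 7.73, 8.49 and 7.82 in the probiotic samples, against 7.88, 8.56 and 7.86 in the high-fat samples. Sample 2 was the highest in both groups for Tie1, and the difference was -0.09 (SE 0.319, adjusted p = 0.963).

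Eng, or endoglin, a co-receptor for ligands of the bone morphogenetic protein family, was the 1 member whose groups did not overlap. Its log2 signals were 9.79, 9.95 and 10.24 in probiotic samples 1, 2 and 3, against 10.28, 10.42 and 10.29 in the high-fat samples. All probiotic samples lay lower, with probiotic sample 3 just under the lowest control. The probiotic mean of Eng was 9.99 ± 0.229 and the high-fat mean 10.33 ± 0.0748 (SD over 3 samples a group), which differ by -0.34 (SE 0.198, adjusted p = 0.74 with limma, 95% interval -0.78 to 0.11). Of all probe sets tested, 6.7% had probiotic values wholly below the high-fat values and 6.02% wholly above, so 1 of 10 members is near the background.

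Pecam1, an adhesion molecule of endothelial junctions, platelets and leukocytes, had 7.68, 8.19 and 7.71 in probiotic samples 1, 2 and 3, against 8.23, 8.35 and 8.09 in the high-fat samples. Probiotic samples 1 and 3 lay below all controls and probiotic sample 2 within their range, with a difference of -0.37 (SE 0.263, adjusted p = 0.766 with limma, 95% interval -0.96 to 0.23). Vwf, the gene of von Willebrand factor, which tethers platelets to injured vessel walls, had 6.73, 7.22 and 7.88 in the probiotic samples, against 5.93, 8.26 and 7.55 in the high-fat samples. Its high-fat values spanned both the lowest and the highest of the 6, and the difference of 0.03 had the widest interval of the members (95% interval -1.28 to 1.34, adjusted p = 0.995).

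**Figure D3:**
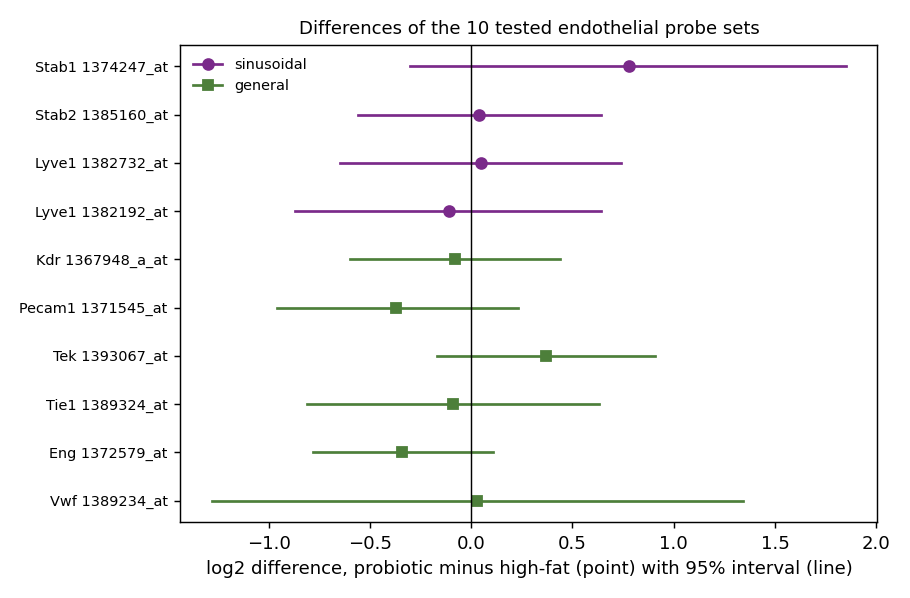
Log2 difference, probiotic minus high-fat (x axis), of the 10 tested endothelial probe sets (rows) with 95% intervals from the limma fit (n = 3 samples a group). Every interval includes 0, from the narrow one of Eng (-0.78 to 0.11) to the wide one of Vwf (-1.28 to 1.34).

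By class, 3 of 3 sinusoidal genes had a positive difference (median 0.049) and 2 of 6 general genes did (median -0.086) (brightest probe set per gene). Over all probe sets tested, 9397 were higher and 9228 lower in the probiotic group (median 0.00416). To set the classes against each other on the same array, each gene's log2 signal was centred on its mean over the 6 arrays and averaged over the class. The sinusoidal average was -0.325, 0.837 and -0.079 in probiotic samples 1, 2 and 3, against -0.036, -0.496 and 0.099 in the high-fat samples. The general average was -0.295, 0.178 and -0.002 in the probiotic samples, against -0.149, 0.291 and -0.024 in the high-fat samples. On 4 of the 6 arrays the classes lay close to each other, and they parted on the 2 arrays numbered 2, in opposite directions. On high-fat sample 2 the sinusoidal average rested mainly on Stab1 (deviation -1.337), with 0.035 for Stab2 and -0.185 for the brighter Lyve1 probe set. The average of the other sinusoidal genes listed below was 0.245 on probiotic sample 2 and 0.035 on high-fat sample 2. For the other general genes it was 0.267 and 0.124, so those lists did not part in this way.

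The sinusoidal minus general difference was -0.030, 0.659 and -0.077 in probiotic samples 1, 2 and 3, against 0.113, -0.787 and 0.123 in high-fat samples 1, 2 and 3. Probiotic samples 1 and 3 lay below high-fat samples 1 and 3. Its probiotic mean was 0.184 ± 0.412 and its high-fat mean -0.184 ± 0.522 (SD over 3 samples a group), so that the gap of 0.368 between the groups was smaller than the SD within either. Leaving out probiotic sample 2 made the gap 0.131, leaving out high-fat sample 2 made it 0.067, and leaving out both made it -0.171. No p-value is given, because the genes were chosen with earlier results known.

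The same arrays stood at the ends of a measure of RNA integrity, the log2 signal of the 3' minus that of the 5' control probe set of beta-actin, which widens as transcripts are broken. The gap was 2.079, 3.066 and 2.394 in probiotic samples 1, 2 and 3, against 1.950, 1.477 and 1.969 in the high-fat samples. Probiotic sample 2 had both the widest gap and the highest sinusoidal minus general value, and high-fat sample 2 had the lowest of each. The gap was wider in every probiotic sample than in any high-fat sample (group means 2.513 and 1.799). The same gap for GAPDH was 0.667, 1.577 and 1.272 in probiotic samples 1, 2 and 3, against 0.533, 0.496 and 0.754 in the high-fat samples. For GAPDH the groups overlapped, and the 2 arrays numbered 2 again stood at the ends. Because the beta-actin gap did not overlap, a fit with it as a covariate cannot separate RNA integrity from the group, here or for the genes below. With the beta-actin gap as a covariate the score difference between the groups was -0.362. The differences of Stab1 and Lyve1 were then -0.529 and -0.752 (adjusted p = 0.999 each with limma).

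**Figure D4:**
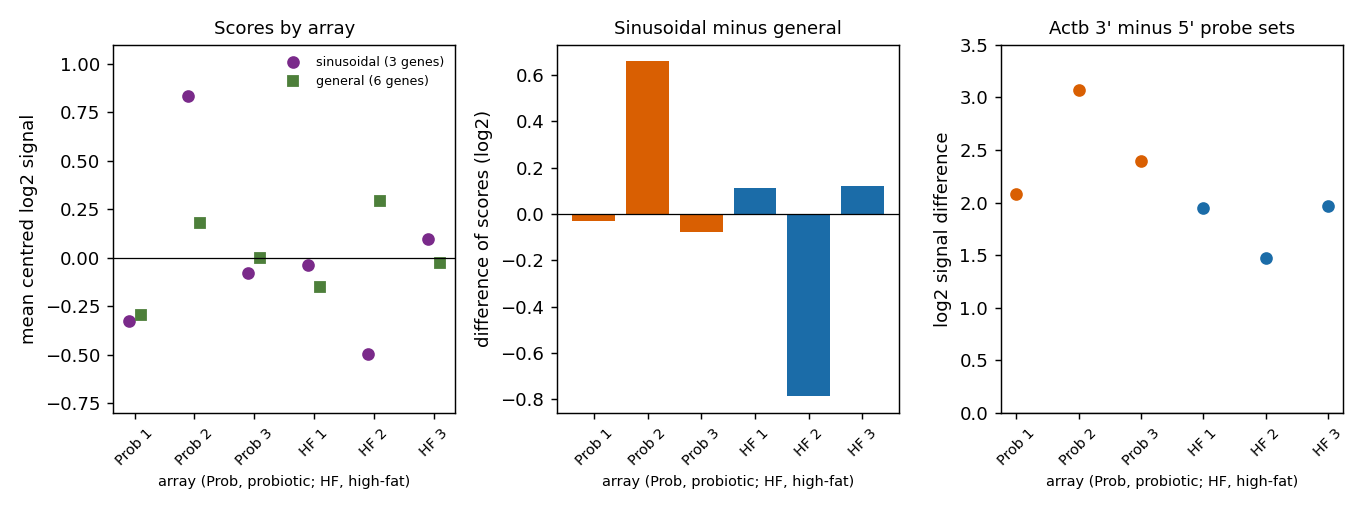
Left, mean centred log2 signal of the sinusoidal genes (circles, 3 genes) and general genes (squares, 6 genes) on each array; middle, the sinusoidal minus general difference; right, the log2 signal gap between the 3' and 5' beta-actin probe sets. The classes part on probiotic sample 2 (0.659) and high-fat sample 2 (-0.787), the arrays with the widest and the narrowest beta-actin gap (3.066 and 1.477).

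Over the 6 arrays the 9 genes varied together in part. Of the 36 pairs of members, 25 had a positive Pearson correlation, with a median r of 0.297 (6 arrays), against 0.00025 over all pairs of the 10573 genes tested. Within the classes the median r was 0.672 over the 3 sinusoidal pairs and 0.191 over the 15 general pairs. For comparison it was -0.008 for 17 other sinusoidal endothelial genes and 0.204 for 34 other general endothelial genes. It was 0.358 for 14 markers of Kupffer cells and macrophages, -0.015 for 12 hepatocyte markers and -0.027 for 14 stellate cell and fibroblast markers. The value of the 3 sinusoidal members was thus not shared by the longer sinusoidal list. These are descriptions over the same 6 arrays, whose integrity measure also varied. Probiotic sample 2 was the highest array for 4 of the 9 genes and high-fat sample 2 for another 4 (Pecam1, Tie1, Eng and Vwf). Probiotic sample 1 was the lowest for 4 (Lyve1, Pecam1, Tie1 and Eng).

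The genes closest in pattern to the average of all members were Fnbp4 (Pearson r = 0.995 over 6 arrays), Polr1d (0.994) and Selenos (0.989), out of 10564 genes compared. For the sinusoidal average they were P2ry2 (0.994), a receptor for extracellular nucleotides, Mex3c (0.988) and Tars2 (0.988). With so few arrays high values are common, and 44 and 39 genes reached an r of 0.95 for these averages. None of the 6 is in the lists of endothelial genes used here.

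Other sinusoidal endothelial genes showed no common direction. Of 26 listed genes, 21 had a probe set and 17 passed the filter, of which 6 had higher and 11 lower values in the probiotic group (median log2 difference -0.062). None passed the adjusted limma test, and at an unadjusted p under 0.05 there was 1 higher and 0 lower, against 2.99% higher and 3.86% lower over all probe sets. The 1 was Clec1b, a C-type lectin receptor known from platelets and, in mouse, from Kupffer cells, so that it is not a specific endothelial marker. Clec1b had 8.49, 9.67 and 8.24 in probiotic samples 1, 2 and 3, against 7.48, 7.35 and 8.01 in the high-fat samples. All probiotic values lay above all controls, with a difference of 1.19 (SE 0.391, adjusted p = 0.726 with limma). It was 0.752 without probiotic sample 2, 0.647 without both arrays numbered 2 and 0.311 with the beta-actin gap as a covariate. Of 5 tested platelet and megakaryocyte markers, 4 had higher values in the probiotic group and 1 lower (median 0.233). The differences were 0.94 for Pf4, 0.68 for Ppbp, 0.23 for Itgb3, 0.02 for Treml1 and -0.45 for Itga2b, and Gp9 and Gp5 lay below the signal filter.

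Besides Clec1b, 1 other of the 17 tested genes had groups that did not overlap, against 6.02% of all probe sets with wholly higher probiotic values. It was F8, the gene of coagulation factor VIII, which is made in endothelium, and it was named after its values were seen. F8 had 8.73, 9.02 and 8.83 in probiotic samples 1, 2 and 3, against 8.19, 8.20 and 8.63 in the high-fat samples. The difference was 0.52 (SE 0.239, adjusted p = 0.728 with limma), and high-fat sample 3 lay just under the lowest probiotic sample. With the beta-actin gap as a covariate it was 0.286. The other F8 probe sets above the filter gave 0.32 and 1.31, each with overlapping groups.

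Fcgr2b, Gpr182 and Dnase1l3 overlapped between the groups. Fcgr2b, the inhibitory antibody receptor through which these cells clear immune complexes, had 10.41, 11.73 and 10.26 in probiotic samples 1, 2 and 3, against 10.84, 11.58 and 11.20 in the high-fat samples, a difference of -0.40 (adjusted p = 0.807 with limma). Probiotic sample 2 was its highest array, and the other probiotic samples lay below all controls. Its difference moved to -0.867 when probiotic sample 2 was left out (adjusted p = 0.91) and to -0.135 when probiotic sample 3 was. Gpr182, a chemokine-binding receptor of sinusoidal endothelium, had a difference of -0.28 on its brighter probe set and -0.43 on the other (adjusted p = 0.827 for the brighter). The brighter gave -0.0293 when high-fat sample 3 was left out and -0.474 when high-fat sample 2 was. Dnase1l3, a secreted nuclease, had -0.07 (adjusted p = 0.963). Clec4g and Oit3 had no probe set with a single symbol here.

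Other general endothelial genes were measured by 40 of 42 listed symbols, with 34 above the filter. Of these, 13 had higher and 21 lower values in the probiotic group (median -0.065), none passed the adjusted test, and 1 of 34 reached an unadjusted p under 0.05, with a lower value, below the 3.86% of all probe sets that did. It was Icam1, the leukocyte adhesion molecule that cytokines induce on endothelium and that other liver cells also make. Icam1 had 11.15, 11.05 and 10.53 in probiotic samples 1, 2 and 3, against 11.00, 11.84 and 11.77 in the high-fat samples. High-fat samples 2 and 3 were higher than all others and high-fat sample 1 was within the probiotic range, with a difference of -0.62 (SE 0.268, adjusted p = 0.726 with limma). Flt1, the decoy-like receptor for vascular endothelial growth factor A, had -0.43 on its brightest probe set and 0.77 on another. Emcn, a sialomucin of capillary and venous endothelium, had 0.09, and Nos3, the endothelial nitric oxide synthase, had -0.52 (adjusted p of 0.963 and 0.804 with limma).

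Ligands and partners of the marker receptors were measured by 28 of 36 listed genes, 24 above the filter, with 11 higher and 13 lower (median -0.025). None passed the adjusted test, and at an unadjusted p under 0.05 there was 1 higher, Foxo1, and 1 lower, Id3. These 2 of 24 are near the background of 6.85%. Of the 24, 3 had wholly higher probiotic values (Foxo1, Vegfc and Tgfbr1) and 0 wholly lower, against 6.02% and 6.7% of all probe sets. Foxo1, a transcription factor that angiopoietin signalling restrains in endothelium and that drives glucose production in hepatocytes, had 9.58, 11.07 and 11.28 in probiotic samples 1, 2 and 3, against 9.36, 9.14 and 9.48 in the high-fat samples. All probiotic values lay above all controls, probiotic sample 1 only just, with a difference of 1.32 (SE 0.398, adjusted p = 0.726 with limma). Without probiotic sample 1 it was 1.85 (adjusted p = 0.048), and with the beta-actin gap as a covariate 0.556 (adjusted p = 0.999). Another Foxo1 probe set above the filter gave 0.07.

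Id3, a target of bone morphogenetic protein signalling, had 10.90, 9.36 and 9.69 in probiotic samples 1, 2 and 3, against 10.89, 10.99 and 10.66 in the high-fat samples. Probiotic samples 2 and 3 lay below all controls and probiotic sample 1 among them. The difference was -0.86 (SE 0.356, adjusted p = 0.726 with limma), and it was -1.32 without probiotic sample 1, -0.547 without probiotic sample 2 and -0.0237 with the beta-actin gap as a covariate. Other targets of this signalling, named after their values were seen, did not share a direction. On the brightest probe set Id1 had a difference of 0.58, Smad7 of 0.73 and Smad6 of -0.48 (adjusted p of 0.852, 0.749 and 0.768 with limma), with overlapping groups for each. All 3 changed sign with the beta-actin gap as a covariate, to -1.25, -0.455 and 0.277, and Id1 also when probiotic sample 2 was left out (-0.335). Other probe sets above the filter gave -0.11 and 0.50 for Smad7, and -0.55 and 0.01 for Smad6. Acvrl1, the receptor that works with endoglin, had -0.04 (adjusted p = 0.988).

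Vegfa, the growth factor that signals through Kdr, had 10.86, 11.34 and 10.45 in probiotic samples 1, 2 and 3, against 10.54, 10.34 and 10.33 in the high-fat samples. Its difference was 0.48 (SE 0.241, adjusted p = 0.732 with limma) on this probe set and -0.36 on the other, so the 2 disagreed in sign. The brighter probe set gave 0.247 when probiotic sample 2 was left out and 0.104 with the beta-actin gap as a covariate. Angpt2, the angiopoietin made by activated endothelium, had -0.20 (adjusted p = 0.939). Angpt1, the main activating ligand of Tek, lay below the filter and was not tested, and Gdf2, a ligand of endoglin, had no probe set with a single symbol.

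Markers of other cells, some of which share the members' genes, were set beside them on the same scale, as the mean centred log2 signal of each list. For 14 of 17 listed Kupffer cell and macrophage markers it ranged from -0.246 to -0.015 in the probiotic samples, against 0.082 to 0.283 in the high-fat samples. Their summed intensity ranged from 19340 to 22770, against 22690 to 28090. Of these 14, 13 had lower and 1 higher values in the probiotic group, against 9228 lower of the 18625 probe sets tested. Of the 14, 3 had probiotic values wholly below the high-fat values, against 6.7% of all probe sets. None passed the adjusted limma test, and 1 reached an unadjusted p under 0.05, with a lower value, against 3.86% of all probe sets. For 7 of 9 listed neutrophil markers, 3 of them below the filter, the mean ranged from -0.397 to -0.022, against 0.110 to 0.470. The tested ones had differences of -1.55 for S100a9, -1.07 for S100a8, -0.52 for Ncf1 and -0.35 for Fcgr3a, which was also in the Kupffer list. The 3 dim ones did not share a direction, with 1.25 for Csf3r (groups not overlapping), -0.82 for Cxcr2 and -0.36 for Camp. Stab1, which macrophages can also express, had a difference of 0.78, and of -0.115 without both arrays numbered 2. For the 6 lymphatic markers the mean ranged from -0.489 to -0.158 in the probiotic samples, against 0.033 to 0.635 in the high-fat samples. The 3 that passed the filter had differences of 0.08 for Prox1, -0.48 for Pdpn and -0.14 for Reln. The other 3 were too dim to be tested, and had -1.98 for Ccl21, -0.85 for Flt4 and -0.65 for Mmrn1. Reln was also listed as a stellate cell marker and Flt4 as a sinusoidal gene, so this list is not specific to lymphatic vessels. The mean of 12 hepatocyte markers ranged from -0.101 to 0.074 in the probiotic samples, against -0.110 to 0.076 in the high-fat samples. The remaining lists also overlapped between the groups. In the same order, the ranges were -0.035 to 0.077 against -0.195 to 0.144 for stellate cells and fibroblasts. They were -0.296 to 0.424 against -0.087 to -0.039 for cholangiocytes, and -0.5 to 0.36 against -0.039 to 0.207 for lymphocytes. For platelets and megakaryocytes they were -0.03 to 0.259 against -0.152 to -0.019. The part of these cells in the endothelial values was not tested.

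Across the series, every array had the same trimmed mean intensity of 500.3, and the median intensity was 109.8 to 117.5 in the probiotic samples, against 90.4 to 147.2 in the high-fat samples. Pairs of arrays from the same group had correlations of 0.917 to 0.943, and pairs across the groups 0.897 to 0.946. The number of arrays limits the precision of every difference given here.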

How the data were processed

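Total RNA was extracted with Trizol from 6 rat liver samples, 3 a group, and biotin-labelled cRNA was put on Affymetrix arrays of 1 colour (source: the labels' protocols). The authors deposited 1 linear intensity per probe set and array. The software that made it is not stated in the labels, and in the values the mean after trimming 2% at each end was 500.3 on every array.

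Intensities were changed to log2(intensity + 16) and quantile normalized, because array medians on that scale (6.73 to 7.35) differed by more than 0.2. Differences are on this scale, which understates those of dim probe sets. The 57 control probe sets and those with a mean under the 40th percentile were left out, leaving 18625. Groups were fitted with limma 3.58.1 in R 4.3.3 (eBayes with trend, two-sided, Benjamini-Hochberg over all 18625, threshold 0.05). Symbols came from the platform annotation, updated through RefSeq gene identifiers (20764 of 20832 probe sets matched, 0 changed). Each gene was summarised by the brightest of its probe sets.

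The members, classes and lists were chosen with earlier results of these data known. Named genes were the members, genes of the other sinusoidal, general and partner lists with an unadjusted p under 0.05, a fixed set of sinusoidal, growth factor and angiopoietin genes, and the 3 genes closest in pattern to each average. F8, Id1, Smad6 and Smad7 were added after their values were seen. The fit was tested on simulated data. Alternatives covered normalization, filter, pseudocount, variance model, array weights, replicate block, the beta-actin gap, probe set averaging, gene classes and left-out samples. Figures were drawn with matplotlib 3.10.9.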

Additional observations from a re-analysis of the deposited data

How the results depend on the processing

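Under 18 alternatives, 0 member probe sets passed the adjusted threshold, with a smallest adjusted p of 0.515. Pecam1, Eng and Tek kept the sign of their difference in all 18, at -0.595 to -0.273, -0.463 to -0.232 and 0.0701 to 0.562. The other members changed sign under some. With the beta-actin gap as a covariate, Stab1 was -0.529, Stab2 -0.386, Lyve1 -0.752, Emcn -0.356, Id1 -1.25, Smad7 -0.455 and Smad6 0.277. The gap did not overlap between the groups, so these covariate values do not separate RNA integrity from the group. Without both arrays numbered 2, Stab1 was -0.115, Stab2 -0.216, Lyve1 -0.378, Emcn -0.219, Id1 -0.352 and Smad7 -0.0938. With array weights, Stab2 was -0.132, Lyve1 -0.114 and Emcn -0.137. Averaging all probe sets of a gene gave -0.033 for Lyve1 and 0.0544 for Flt1. Without normalization between arrays Vwf was -0.000486 and Emcn -0.00204, and with a pseudocount of 64 Vwf was -0.0265. The cause was not tested. With each sample left out in turn, the ranges were 0.306 to 1.1 for Stab1, -0.241 to 0.255 for Stab2, -0.295 to 0.361 for Lyve1, -0.251 to 0.116 for Kdr, -0.329 to 0.142 for Tie1, -0.632 to 0.533 for Vwf, -0.183 to 0.139 for Acvrl1, -0.492 to 0.0695 for Angpt2, -0.359 to 0.0788 for Dnase1l3, -0.166 to 0.297 for Emcn, -0.335 to 1.3 for Id1 and, with no change of sign, -0.734 to -0.221 for Flt1.

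The sinusoidal minus general difference between groups (0.368) was -0.362 with the covariate and -0.171 without both arrays numbered 2, 0.067 to 0.519 with single samples left out, and 0.275 with Kdr counted as sinusoidal. The adjusted count among the other endothelial genes and partners was 0 to 1 with single samples left out, the 1 being Foxo1 without probiotic sample 1. Their unadjusted count of 4 was 2 with eBayes without trend, 7 when probiotic sample 1 was left out and 2 when high-fat sample 2 was. Correlations of same-numbered deviations were 0.144, 0.027 and 0.077. Probiotic sample 2 correlated best with high-fat sample 3 (0.067), and every other sample with the one of its own number. These values are small and do not settle whether the numbers 1 to 3 pair the samples, which the main fit treated as unpaired. With the replicate block 0 members passed (smallest adjusted p 0.646; 0 at an unadjusted p under 0.05), and the unadjusted count among the other endothelial genes and partners was 5.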
